A study of Mus musculus with 8 samples.

Results

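The Schlafen genes form a cluster on mouse chromosome 11. The 7 protein-coding members Slfn5, Slfn9, Slfn8, Slfn2, Slfn1, Slfn4 and Slfn3, in this order, were described here of the 21887 protein-coding genes of the RefSeq table for GRCm38.p6. They were taken by their RefSeq positions, which span chr11:82951349-83215154 (263806 bp), and every acetylation peak within this span and 50 kb on either side (chr11:82901349-83265154, 363806 bp) was listed. The cluster was singled out because Slfn2 had carried H3K27ac in the Fed lists and in no Fast list, so the Fed and Fast values of H3K27ac given below are a description, without a test.

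H3K27ac and H3K9ac, acetylation of histone H3 at lysines 27 and 9, lie at active promoters, and H3K27ac also at active enhancers. Both marks were profiled by CUT&Tag, in which an antibody brings a transposase to the marked chromatin, in small intestinal crypts of male C57BL/6J mice aged 9 weeks. The mice were fed (Fed) or fasted for 24 h (Fast), each without (-Tetra) or with (+Tetra) a tetracycline course of 21 days, which gave 4 groups and 4 samples for each mark. Every sample had 2 peak lists, called lists 1 and 2 after the numbers in their names. The labels do not say how many mice gave a sample, whether mice were pooled, or whether the lists came from different mice, so the spread between lists may be technical. The crypt cells were dissociated to single cells and no sort is named. All groups shared this strain, sex and age. The series title places the comparison in the question of how fasting and the microbiome act on crypt chromatin.

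Schlafen proteins share a divergent AAA domain. Mouse members are grouped by size into short proteins (Slfn1 and Slfn2), intermediate ones (Slfn3 and Slfn4) and long ones with a helicase-like region (Slfn5, Slfn8 and Slfn9). Many members are induced by type I interferon, and the family is known for restraining the growth of lymphocytes and myeloid cells: Slfn2 keeps T cells quiescent, Slfn1 slows thymocyte growth and Slfn4 marks a population of myeloid cells. Slfn3 has been tied to the differentiation of intestinal epithelial cells.

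The sequences just before the start sites show which members resemble each other and which motifs they share. RefSeq start sites and upstream sequences (GRCm38.p6) were found for 7 of 7 members. Slfn8 had 2 start sites, and only the one nearest to the 5′ end of the gene was used. The 250 bases before the start are printed 5′ to 3′ in the direction of the gene for Slfn2, whose upstream flank carried the H3K27ac peak, for Slfn9 and Slfn5, the members with a peak of either mark just inside the gene, and for Slfn8, the nearest relative of Slfn9 and free of peaks. For Slfn1, Slfn3 and Slfn4 the 48 bases around the shared motif are printed. Capitals mark matches to the core of the interferon-stimulated response element (GAAA, any 2 bases, GAAA), in Slfn5, Slfn8 and Slfn9, and to CAGGAAGT, a site of the ETS factor family, in Slfn1, Slfn2, Slfn3 and Slfn4, on either strand.
Slfn2, chr11:83064862-83065111, plus strand: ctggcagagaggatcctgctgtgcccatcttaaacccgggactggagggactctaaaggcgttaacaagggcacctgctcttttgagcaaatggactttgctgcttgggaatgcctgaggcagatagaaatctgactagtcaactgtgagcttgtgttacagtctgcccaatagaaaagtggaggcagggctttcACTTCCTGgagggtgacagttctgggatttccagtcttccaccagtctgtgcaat
Slfn9, chr11:82991831-82992080, minus strand: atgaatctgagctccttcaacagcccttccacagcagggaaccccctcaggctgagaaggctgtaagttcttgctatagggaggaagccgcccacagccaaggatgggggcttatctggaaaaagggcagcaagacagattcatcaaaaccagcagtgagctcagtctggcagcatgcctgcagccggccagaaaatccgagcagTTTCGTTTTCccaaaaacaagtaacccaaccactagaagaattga
Slfn8, chr11:83020811-83021060, minus strand: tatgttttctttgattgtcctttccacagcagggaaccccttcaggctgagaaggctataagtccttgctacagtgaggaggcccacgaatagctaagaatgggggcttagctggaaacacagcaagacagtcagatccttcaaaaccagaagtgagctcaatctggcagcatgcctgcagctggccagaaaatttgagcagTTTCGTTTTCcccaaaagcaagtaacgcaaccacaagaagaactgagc
Slfn5, chr11:82951852-82952101, plus strand: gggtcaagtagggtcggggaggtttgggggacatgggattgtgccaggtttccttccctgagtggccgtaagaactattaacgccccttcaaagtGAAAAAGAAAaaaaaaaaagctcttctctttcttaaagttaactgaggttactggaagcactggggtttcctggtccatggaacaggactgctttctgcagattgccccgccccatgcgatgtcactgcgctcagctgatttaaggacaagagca
Slfn1, chr11:83116726-83116773, plus strand: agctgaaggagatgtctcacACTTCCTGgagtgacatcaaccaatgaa
Slfn4, chr11:83175093-83175140, plus strand: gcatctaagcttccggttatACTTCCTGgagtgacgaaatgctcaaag
Slfn3, chr11:83191268-83191315, plus strand: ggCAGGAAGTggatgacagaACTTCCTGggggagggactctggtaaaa

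The upstream sequences of Slfn8 and Slfn9 were 80.0% identical (204 of 255 alignment columns). The next closest pair, Slfn1 and Slfn9, reached 50.9%. The interferon-response core was present before the starts of Slfn5, Slfn8 and Slfn9, 3 of 7 members, against 2.98% of the 32851 RefSeq windows of this length. These windows count every start site of a gene, while the members were counted by 1 start each. The Slfn8 and Slfn9 matches were identical and lie in similar sequences, so they are not independent cases. The Slfn5 match runs into a tract of A. CAGGAAGT was present before Slfn1, Slfn2, Slfn3 and Slfn4, 4 of 7 members, against 2.69% of windows, and Slfn3 held it on both strands. This second motif was chosen after the sequences had been read. TTCNNNGAA, the STAT site, was found in 0 of 7 members and 7.02% of windows. The motifs were searched on both strands and the matches did not overlap each other. Whether reads that map equally well to more than 1 member were kept is not given in the sources used here, so peaks near Slfn8 and Slfn9 are uncertain in this respect.

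The lists differed in size and depth is unknown. H3K27ac lists held 32392 to 68545 peaks and H3K9ac lists 17249 to 99050, and the names of the lists say that the data were downsampled. Genes with a peak at most 1 kb from their start or end are called marked here, which held for 42.9% to 50.7% of all genes per H3K27ac list and 41.1% to 53.2% per H3K9ac list. Of the 10 epithelial marker genes, such as Epcam, Vil1 and Cdx2, 10 were marked in every H3K27ac list and 9 to 10 in every H3K9ac list. Of the 5 genes of other tissues, 0 to 1 were marked by H3K27ac and 1 to 2 by H3K9ac. Alb, Ins2 and Neurod6 were marked in no list. Sftpc was marked by H3K27ac in 3 Fed and 3 Fast lists and by H3K9ac in 4 and 4, and Myh6 by H3K9ac in 1 Fed and 2 Fast lists.

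Across the Schlafen cluster acetylation was sparse. The 8 H3K27ac lists together held 16 peaks in the span with its flanks and the 8 H3K9ac lists 20 peaks. H3K27ac peaks covered 0% to 0.941% of the span (median 0.261%), against 1.21% to 2.36% of the genome, taken as the sum of the chromosomes up to their last peak. H3K9ac peaks covered 0% to 0.733% (median 0.374%), against 0.607% to 1.74% of the genome. The merged H3K27ac peaks made 7 regions, of which 3 (42.9%) came from a single list, against 53.1% of all H3K27ac regions. The merged H3K9ac peaks made 15 regions, of which 12 (80.0%) came from a single list, against 84.4% of all H3K9ac regions. No region had a peak in all 8 lists of a mark. Each list marked between 0 and 2 of the 7 members for either mark.

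**Figure D1:**
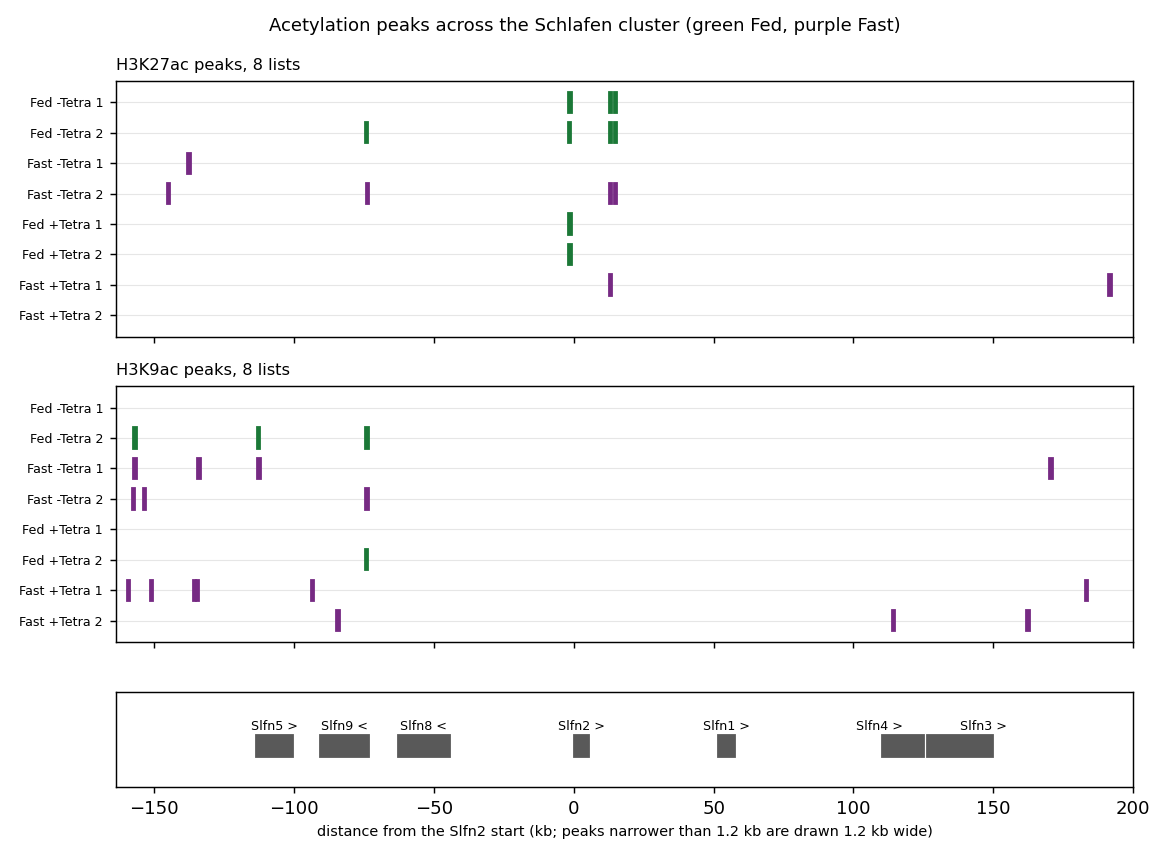
Peaks of the Schlafen cluster by list. The horizontal axis is the distance from the Slfn2 start in kb, each row is 1 of the 16 lists, green bars are peaks of Fed lists and purple bars peaks of Fast lists (drawn at least 1.2 kb wide to be visible), and the gene bodies with their direction are at the bottom. The green bars just left of 0 are the 4 H3K27ac peaks of the Fed lists upstream of Slfn2, and the 2 marks share positions at Slfn9 but not near Slfn2.

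Slfn2, the short member that keeps T cells quiescent, carried an H3K27ac peak upstream of its start in all 4 Fed lists and in none of the 4 Fast lists. The 4 peaks lay within chr11:83063052-83064203 (1152 bp), between genes, and had 648 bp in common, chr11:83063507-83064154. Without tetracycline, the peak of Fed list 1 had a score of 83.26 and a width of 678 bp, and that of Fed list 2 a score of 121.26 and a width of 1152 bp. With tetracycline, the peak of Fed list 1 had a score of 62.0 and a width of 648 bp, and that of Fed list 2 a score of 89.09 and a width of 884 bp. These scores are the authors' values, have no stated unit and were at least 50 in every list. Both Fed lists without and both with tetracycline thus held the peak, and the Fed and Fast lists did not overlap. The pattern of all 4 Fed and no Fast lists was seen for 1 of the 7 members and for 0.0137% of all genes (3 of 21887), and for 1 of the 7 cluster regions against 0.0837% of all H3K27ac regions. The opposite pattern, all 4 Fast and no Fed lists, had 0 cluster regions against 0.4% of all regions. Since this contrast chose the cluster, nothing is read from that comparison. In whole crypts, fewer cells with the mark and less of the mark per cell cannot be told apart.

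The Slfn2 peaks were weak members of their lists and did not reach the start site. Their edges lay 909 to 958 bp before the start, so they were 42 to 91 bp inside the 1 kb limit, and the nearest lay 659 bp before the printed Slfn2 sequence. In their lists, 66.3% (Fed list 2 without tetracycline), 69.8% (Fed list 1 without), 78.0% (Fed list 2 with) and 87.3% (Fed list 1 with tetracycline) of peaks scored higher. None of the 4 was in the upper 0.5 of its list by score. With the 32392 top peaks of every list, 3 of the 4 were kept, and the peak of Fed list 2 with tetracycline was lost. The Fed lists held 36340, 47565, 32392 and 48242 H3K27ac peaks and the Fast lists 68545, 55415, 56717 and 36737, and the part of list size and depth in the missing Fast peaks was not tested.

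**Figure D2:**
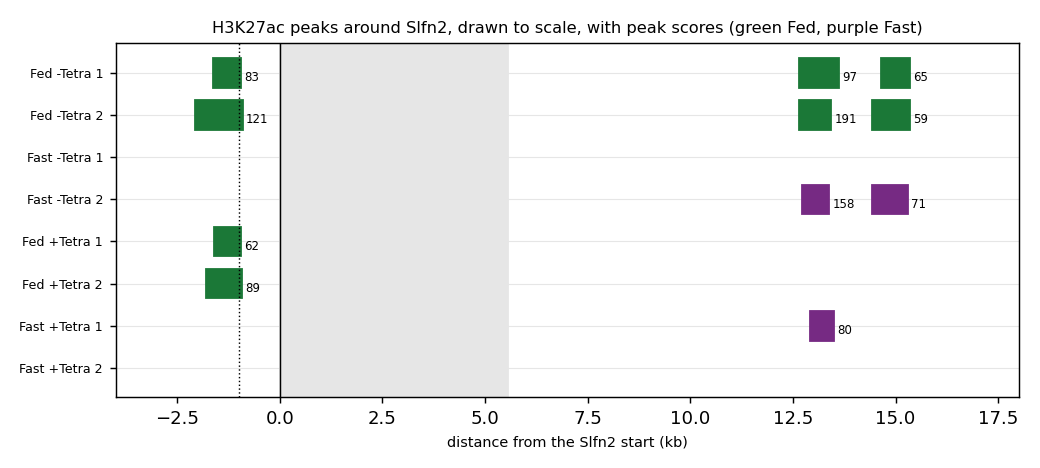
H3K27ac peaks around Slfn2 drawn to scale in the 8 lists, with the score printed beside each peak. The horizontal axis is the distance from the Slfn2 start in kb, the grey band is the gene body, the solid line its start and the dotted line 1 kb before it; the Fed peaks left of the start end 909 to 958 bp before it, and no Fast list has a peak there.

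In the Fast lists the H3K27ac peak nearest to the Slfn2 start was far away. Without tetracycline it lay at 138 kb in list 1 and at 12.7 kb in list 2. With tetracycline it lay at 12.9 kb in list 1 and at 174 kb in list 2. The peaks at 12.7 and 12.9 kb belonged to an element downstream of the gene, described after its values were seen, at chr11:83077764-83078741, which began 7086 bp past the end of Slfn2. This element had scores of 96.78 and 190.64 in Fed lists 1 and 2 without tetracycline, 158.47 in Fast list 2 without and 80.09 in Fast list 1 with tetracycline. It was thus found in 2 Fed and 2 Fast lists, and in no Fed list with tetracycline. A second downstream element, chr11:83079538-83080457, had scores of 65.1 and 58.54 in Fed lists 1 and 2 and 70.71 in Fast list 2, all without tetracycline. Between these elements and the upstream peak the gene body of Slfn2 held no peak of either mark in any of the 16 lists.

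H3K9ac was not called near Slfn2 in any list. The nearest H3K9ac peak to its start lay 73.4 to 174 kb away, so Slfn2 could not enter the H3K9ac tests. Of the 16 H3K27ac peaks of the cluster, 2 (12.5%) overlapped an H3K9ac peak of any list, against 69.9% of all H3K27ac peaks. Of the 20 H3K9ac peaks, 3 (15%) overlapped an H3K27ac peak, against 40.5% of all H3K9ac peaks. The overlapping peaks were those at Slfn9.

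Tetracycline was tested on the length covered by peaks over each gene body with 1 kb on either side, by an exact permutation of the tetracycline labels within each feeding state over all genes with a peak there. The smallest p these 36 arrangements allow is 0.056, so no gene could pass 0.05, and 0 did. For Slfn2, H3K27ac within 1 kb of the gene covered 59 and 92 bp in Fed lists 1 and 2 without tetracycline, 43 and 87 bp with it, and 0 bp in every Fast list. The mean with tetracycline was 32.5 ± 41.6 bp (SD, n = 4 lists) and without it 37.8 ± 45.6 bp. The groups overlapped. Slfn2 was chosen for a peak in every Fed list, without and with tetracycline, so these values are a description and no p is given. Of the 16118 genes tested for H3K27ac, 3.46% reached the smallest p, where a share of up to 0.056 is expected without any effect. The members among these genes were Slfn2 and Slfn9, and neither could reach the smallest p. Slfn2 had 0 bp in every Fast list, and Slfn9 had H3K27ac in 1 Fed and 1 Fast list only.

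Slfn9, a long member with a helicase-like region, was the member with both marks at its start, and there only in lists numbered 2. The gene runs along the minus strand of chr11:82974316-82991830. H3K27ac peaks with scores of 52.31 and 52.87 were called in Fed list 2 and Fast list 2 without tetracycline, 613 and 58 bp inside the start, and 98.0% and 97.0% of the peaks in these lists scored higher. H3K9ac peaks with scores of 108.41, 82.13 and 78.25 were called in Fed list 2 without, Fed list 2 with and Fast list 2 without tetracycline, 81, 405 and 284 bp inside the start. All 5 peaks lay within the gene, whose exons were not used here. Fast list 2 with tetracycline had an H3K9ac peak of 277 bp deeper in the gene (score 139.21, 10848 bp from the start). No list numbered 1 had a peak of either mark in Slfn9.

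The H3K9ac length over Slfn9 did not separate Fed from Fast lists. It was 417 ± 499 bp in Fed and 272 ± 381 bp in Fast lists (SD, n = 4 lists each), a difference of -146 bp (two-sided exact permutation p = 0.778; adjusted over 18744 genes, p = 1.0). Here 5.13% of the 18744 genes reached the smallest p of 0.056 and 0 of the 3 members tested did. A share of up to 0.056 of genes is expected there without any effect. None of the members tested could reach this smallest p. H3K9ac covered Slfn5 in 2 lists and Slfn4 in 1. It covered Slfn9 only in lists numbered 2, and each group holds 1 of these. The count of 0 members is therefore no result about them. With tetracycline the H3K9ac length was 237 ± 318 bp and without it 451 ± 527 bp, a difference of -214 bp (exact permutation p = 0.611, adjusted p = 1.0). For this contrast 2.27% of genes and 0 of 3 members reached the smallest p, which again no member could. H3K27ac over Slfn9 covered 0 bp in the 4 lists with tetracycline and 342 ± 403 bp in those without (exact permutation p = 0.5, adjusted p = 1.0). The latter came from 2 of 4 lists, 1 Fed and 1 Fast, which allow no lower p. Each of these differences was smaller than the largest SD of its groups. These SDs include the gap between lists 1, all at 0 bp, and lists 2. In lists 2, H3K9ac covered 996 bp (Fed) and 809 bp (Fast) without tetracycline. With it, the values were 672 bp (Fed) and 277 bp (Fast). Each of these is 1 list, so their spread is not known.

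Slfn5, a long member described as a regulator of interferon-dependent transcription, had H3K9ac just inside its start in 2 lists. The RefSeq start lies at position 82952102, while the gene table begins at 82951349. Fed list 2 without tetracycline had a peak of 581 bp with a score of 58.58, 78 bp from the start, and Fast list 1 without tetracycline a peak of 343 bp with a score of 104.28, 293 bp from it. By the gene table's own end, the second of these peaks was beyond 1 kb and did not count as marked. The mean H3K9ac length was 145 ± 290 bp in Fed and 85.8 ± 172 bp in Fast lists, a difference of -59.5 bp (exact permutation p = 1.0, adjusted p = 1.0). With tetracycline no list had a peak over Slfn5, and without it the mean was 231 ± 284 bp (exact permutation p = 0.5, adjusted p = 1.0). With peaks in 1 Fed and 1 Fast list, no lower p was possible. H3K27ac was called over Slfn5 in 0 of 8 lists. The gene overlaps the long noncoding RNA gene Slfn5os, so these peaks lie in both.

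The other 4 members were almost without peaks. Slfn8, whose upstream sequence is the closest to that of Slfn9, had a peak within 1 kb of its body in 0 of 16 lists, and the nearest peak to its start lay 29.0 to 130 kb away for H3K27ac and 29.1 to 130 kb for H3K9ac. Slfn1, the thymocyte member, and Slfn3, the member tied to epithelial differentiation, likewise had none in any list, with H3K27ac at least 36.4 and 65.2 kb from their starts. Slfn4, the myeloid member, had no H3K27ac peak and an H3K9ac peak of 200 bp in Fast list 2 with tetracycline, 4152 bp inside the gene, with a score of 75.59 (mean difference Fast minus Fed 50 bp, exact permutation p = 1.0, adjusted p = 1.0). A peak in 1 list allows no other p. In order of the number of lists with H3K27ac at a gene end, Slfn2 came first with 4 and Slfn9 next with 2, followed by 5 members with 0; for H3K9ac, Slfn9 had 3, Slfn5 had 1 and 5 members had 0. H3K9ac in all 4 Fed and no Fast lists was seen for 0 members against 0.0411% of genes, and for 0 cluster regions against 0.0145% of regions. H3K9ac in all 4 Fast and no Fed lists was seen for 0 members against 0.0777% of genes, and for 0 cluster regions against 0.0189% of regions. In the Fast direction H3K27ac had 0 members too, against 0.0959% of genes.

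**Figure D3:**
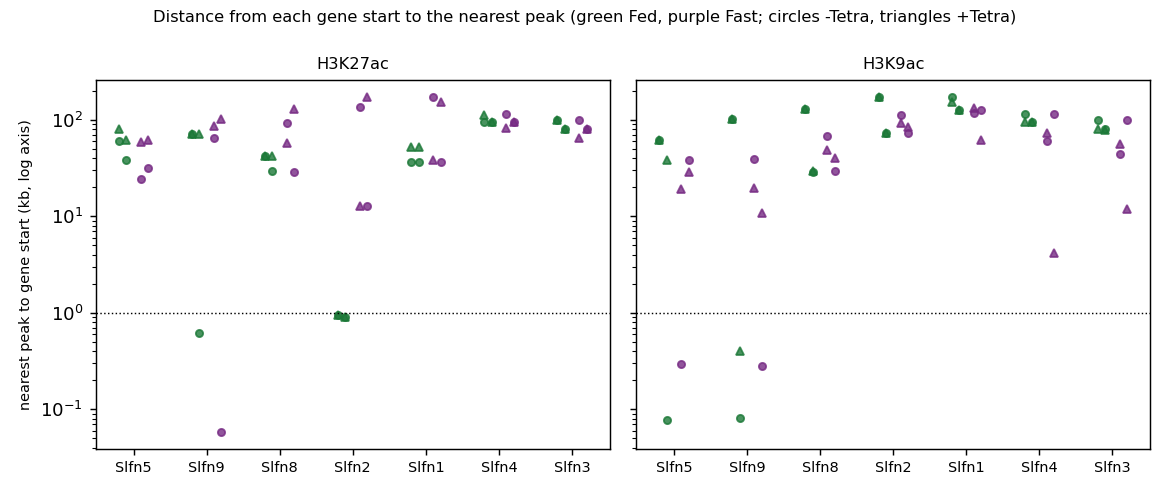
Distance from the start of each member, in chromosomal order, to the nearest peak in each list, in kb on a log axis, with H3K27ac on the left and H3K9ac on the right. Green points are Fed and purple points Fast lists, circles are without and triangles with tetracycline, and the dotted line is 1 kb; the 4 Fed points of Slfn2 at 0.909 to 0.958 kb sit together under the line on the left, while its Fast points lie at 12.7 kb or more.

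Over the whole cluster with its flanks, the mean H3K27ac length was lower and the mean H3K9ac length higher in Fast than in Fed lists, with overlapping groups for both marks. H3K27ac covered 2364 and 3423 bp in Fed lists 1 and 2 without tetracycline, 200 and 2888 bp in the Fast lists without, 648 and 884 bp in the Fed lists with, and 1015 and 0 bp in the Fast lists with tetracycline. The mean was 1830 ± 1310 bp in Fed and 1030 ± 1320 bp in Fast lists (SD, n = 4 lists each), and the groups overlapped. This difference of -804 bp counts the 4 Slfn2 upstream peaks again, which chose the cluster. They were 648 to 1152 bp wide and found in Fed lists only, so no loss over the cluster is read from it. With tetracycline the mean H3K27ac length was 637 ± 451 bp and without it 2220 ± 1410 bp, again with overlap. The difference of -1582 bp was -2710 bp without lists 1 and -450 bp without lists 2.

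H3K9ac covered 0 and 2132 bp in Fed lists 1 and 2 without tetracycline, 2668 and 2040 bp in the Fast lists without, 0 and 672 bp in the Fed lists with, and 2082 and 677 bp in the Fast lists with tetracycline. The mean was 701 ± 1010 bp in Fed and 1870 ± 843 bp in Fast lists, and 16 of the 20 peaks came from Fast lists. This difference rested on the flanks and on lists 1: within the span of the members alone it was -8.5 bp, without lists 1 it was -43.5 bp, and without lists 2 it was 2375 bp. Of the 20 H3K9ac peaks, 9 lay before Slfn5, 8 within the span of the members and 3 beyond Slfn3. Lists 1 also differed most in size, with 17249 and 24643 H3K9ac peaks in Fed and 99050 and 97764 in Fast lists. With each list held to its 17249 highest-scoring peaks, the difference was 276 bp in place of 1170 bp.

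**Figure D4:**
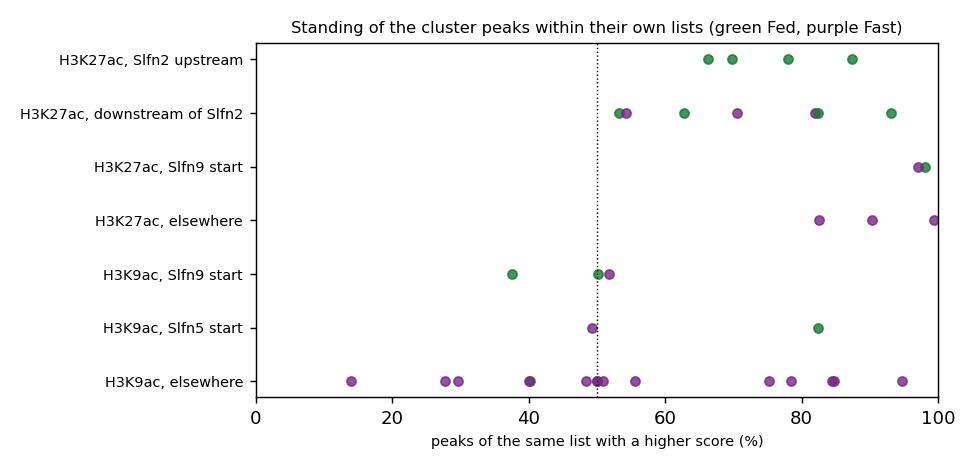
Standing of each cluster peak within its own list, as the percentage of peaks in that list with a higher score (horizontal axis), by mark and place; green points are Fed and purple points Fast lists, and the dotted line is 50%. The 16 H3K27ac points lie between 53.2% and 99.4%, while the 20 H3K9ac points spread from 14% to 94.7%.

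The H3K27ac peaks of the cluster therefore all ranked in the lower part of their lists, with a median of 82.2% of peaks scoring higher. For H3K9ac the median was 50.1%. Among the neighbours in the flanks, Nle1, a gene of ribosome assembly, was the most often marked, by H3K9ac in 2 Fed and 2 Fast lists and by H3K27ac in none. Unc45b, a chaperone of muscle myosin, was marked by H3K9ac in 1 Fast list, as were the pseudogene Gm11424 and the noncoding gene AI662270. The other 10 genes in the flanks or between the members, Unc45bos, Slfn5os, Mir7679, Gm11425, Slfn10-ps, Gm20234, Gm51911, Gm38922, Gm38924 and Gm11427, had a peak of neither mark within 1 kb of an end; of these, the noncoding gene Gm20234 lies within Slfn2. Outside the span, Slfn14 was marked in 0 of 16 lists and the Schlafen-like gene Slfnl1 on chromosome 4 by H3K9ac in 1 Fast list.

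The wider interferon pathway was marked far more often than the cluster. Beside it, 42.9% to 50.7% of all genes were marked per H3K27ac list and 41.1% to 53.2% per H3K9ac list. Of 39 interferon-stimulated genes in the table, Fed lists marked 24 to 32 and Fast lists 24 to 31 by H3K27ac, and 19 to 30 and 24 to 27 by H3K9ac. Ifit3, an antiviral RNA-binding partner, had H3K27ac in 4 Fed and 4 Fast lists, and Ifit1, which binds foreign RNA caps, in 4 Fed and 3 Fast lists. Ifit1bl1 had it in 0 Fed and 2 Fast lists and Ifit2 in 0 Fed and 1 Fast list. Of 18 genes of interferon signalling, which hold the receptors, the JAK kinases, the STATs and the IRF factors, Fed lists marked 18 and Fast lists 16 to 18 by H3K27ac, and 16 to 18 and 13 to 18 by H3K9ac. The receptor genes Ifnar1, Ifnar2, Ifngr1 and Ifngr2 had H3K27ac in 8 of 8 lists, and H3K9ac in 6, 8, 7 and 8 lists.

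Because Slfn2 is known from T cells, marker genes of blood cells were counted beside it. The share of all genes marked per list was 42.9% to 50.7% for H3K27ac and 41.1% to 53.2% for H3K9ac. Of 7 T cell genes, Fed lists marked 1 to 6 and Fast lists 3 to 6 by H3K27ac; of 5 B cell genes 1 to 2 in both; of 7 myeloid genes 0 to 3 and 1 to 3; and of 4 genes of all leukocytes 0 to 3 and 1 to 2. Among the T cell genes, Cd3e had H3K27ac in 4 Fed and 2 Fast lists, Cd8a in 2 Fed and 4 Fast lists and Lck in 2 Fed and 3 Fast lists. Cd3d, Cd3g and Zap70 had it in 3 Fed and 3 Fast lists each, and Cd4 in 0 lists. Among the leukocyte genes, Coro1a had it in 3 Fed and 0 Fast lists, Cd52 in 2 Fed and 0 Fast lists, Laptm5 in 2 Fed and 3 Fast lists, and Ptprc in 0 Fed and 4 Fast lists. These genes differed in direction. Fed lists 1 and 2 without and then with tetracycline marked 6, 5, 1 and 5 T cell genes by H3K27ac. In the same order the Fast lists marked 3, 5, 6 and 4. For the leukocyte genes these counts were 3, 3, 0 and 1 in Fed and 2, 2, 2 and 1 in Fast lists. By H3K9ac the T cell, B cell, myeloid and leukocyte lists had 1 to 3, 0 to 2, 0 to 2 and 0 to 2 genes marked in Fed lists and 2 to 3, 0 to 2, 1 to 4 and 1 to 3 in Fast lists. Their part in the Slfn2 result was not tested.

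No other gene was marked in exactly the same of the 16 lists as Slfn2. By H3K27ac alone, 3 genes, Slfn2 among them, had all 4 Fed and no Fast lists. Likeness was the number of the 16 lists in which a gene's marked state equalled that of Slfn2. Cyp4a12b on chromosome 4, a fatty acid hydroxylase gene, and S1pr5 on chromosome 9, a sphingosine phosphate receptor gene, matched it in 15 lists, each with H3K27ac in 3 Fed lists and no Fast list. Spesp1, Plppr3 and Cabp4 came next with 14 lists, a number reached by 22 genes. All 5 had no H3K9ac in any list. A gene with no peak in any list matches Slfn2 in 12 lists, and 5128 genes had that number.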

How the data were processed

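CUT&Tag for H3K27ac and H3K9ac gave 8 samples with 2 deposited peak lists each. Per the labels and the submitters' processing notes, libraries were made with a commercial CUT&Tag kit, and FastQC, Bowtie, SAMtools and the build mm10 were used. Peaks are named after MACS in the deposited lists; its version, cutoff and the use of IgG libraries are not given in the sources used here. Each peak has a deposited score without a stated unit, used to describe, rank or filter peaks within a list. List names say the data were downsampled; no read totals are given, so depth is unknown and no interval needing it is given.

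Peaks on chromosomes 1 to 19, X and Y were used. No 2 lists of a mark shared more than 0.0315% of identical peaks. Genes and start sites came from RefSeq tables for GRCm38.p6, the assembly of mm10. Peaks overlapping by at least 1 bp were merged into regions. Covered length was tested by exact permutation within strata, with Benjamini-Hochberg adjustment over all genes with a peak; the list was the unit, so p-values measure only the spread between lists. The tests and counting were tested on simulated data. Members, gene lists and tests were chosen with earlier results of these data known. Named genes were the members, all genes in the span, the 5 genes most like Slfn2, and interferon genes with peaks in every list of Fed or Fast and at most 1 of the opposite state, or else the leading 4 of their set; further genes named, and the downstream elements, were chosen after their values were seen. Marked genes were counted by either gene end, covered length over the gene body with 1 kb on each side, and distances from the RefSeq start site. Alternatives were equal numbers of top peaks per list, the upper 0.5 of peaks by score, leaving out lists 1 or 2, other distances, flanks and merging rules, gene bodies alone, and pairs of lists with the same number; peaks at least 500 bp wide were added after the data were seen. Python 3.11.15, numpy 2.4.6, pandas 2.3.3, Biopython 1.88 and matplotlib 3.10.9 were used.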

Additional observations from a re-analysis of the deposited data

How the results depend on the processing

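For the H3K27ac pattern at Slfn2 (all 4 Fed lists, no Fast list), leaving out lists 1 or lists 2 could not remove it and says nothing about its stability. The pattern was also kept at a distance of 2.5 kb and with peaks at least 500 bp wide, a choice made after the data were seen. Both outcomes follow from the peak distances and widths given above, so they add nothing about its stability. The count of such members was 0 with the upper 0.5 of each list by score, with the same number of top peaks, and when a peak had to overlap the gene end (0 kb). The count of such regions of the cluster was 0 under the 2 choices by score. The mean number of members marked, Fast minus Fed, was -1.0, counting Slfn2 itself, and became 0 with the upper 0.5 by score and at 0 kb. The H3K27ac length of the cluster, with minus without tetracycline, was 0 with the upper 0.5 by score, where no H3K27ac peak of the cluster is left, and ran from -2710 to -450 bp when the lists of 1 number were left out. The H3K9ac length, Fast minus Fed, ran from -43.5 to 2375 bp in the same way and was -8.5 bp without flanks. The H3K9ac length of Slfn5, Fast minus Fed, turned to 85.8 bp with the upper 0.5 by score, and that of Slfn9 to 69.2 bp with the same number of top peaks, both for feeding and for tetracycline; none of these had passed a test. Over all genes, 3 had H3K27ac in all Fed and no Fast lists, against 1 with the upper 0.5 by score, 18 with equal numbers of top peaks, 8 at 0 kb and 7 with wide peaks; for H3K9ac, 9 became 36, 124, 23 and 17. In the Fast direction, 21 H3K27ac genes became 27, 21, 15 and 21, and 17 H3K9ac genes became 6, 0, 5 and 10. At 2.5 kb these 4 counts were 2, 7, 24 and 44. The per-gene tests were not run without the lists of 1 number, which leaves 1 list per group. The cause was not tested.

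With the list number as a replicate block, the pairs allow no p below 0.125, and 1835 (H3K9ac, feeding), 1579 (H3K9ac, tetracycline) and 1806 genes (H3K27ac, tetracycline) reached it, against 961, 425 and 557 at the smallest p without the block; the lowest p of a member was 0.5. Between groups, the differences of list 1 and list 2 correlated over genes with r between 0.0252 and 0.186 (H3K27ac) and between -0.0635 and 0.125 (H3K9ac), so the lists share a number and were not treated as pairs. None of these tests could pass 0.05, which says nothing about stability. Unknown depth limits every absence of a peak given here to the authors' calling threshold.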

Other observations

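The H3K9ac peak in Slfn4 and another at chr11:83227366-83227565, both 200 bp wide and both in Fast list 2 with tetracycline, had the same score of 75.59. That value was given to 7362 peaks (13.8%) of the list, of which 69.7% were 200 bp wide. In the other 15 lists the commonest score took 0.244% to 5.23% of peaks.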
